A study of Mus musculus with 2 samples.

Results

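The let-7 genes that lie outside the clusters of Mir99 and Mir100 are 9 of the 1973 miRNA genes counted in facial prominence tissue of the mouse embryo. They were taken by name: Mirlet7i, Mirlet7g, Mirlet7d, Mirlet7b, Mirlet7a-1, Mirlet7c-2, Mirlet7f-2, Mir98 and Mirlet7f-1. The last was read through Gm24111, a gene annotated on the other strand over the same bases, with the counts opposite to Gm24111. The data are 2 libraries of a single group, biological replicates 1 and 2, from the strain B6NCrl at 13.5 days of development. The tissue is labelled healthy and came from male and female embryos together, with RNA under 30 bases sequenced. There is no treatment, genotype or stage contrast. The labels give the 2 libraries different tissue samples and the same donor entry, which does not say which embryos went into each, so the spread between them may be in part technical.

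MicroRNAs are short RNAs cut from hairpin precursors, and a single read spans a whole mature molecule. Levels were therefore compared between genes as CPM, counts per 1000000 counts on miRNA genes of their own strand, without division by length. Adapters can join to different miRNA sequences with different efficiency, which was not tested. The let-7 family is known from worms to mammals as a brake on growth and on the embryonic state. Its mature RNAs accumulate as tissues differentiate and repress genes such as Hmga2, Lin28a and Ras genes, while LIN28 proteins bind the loops of let-7 precursors and block their maturation. The bases that select targets, the seed, are bases 2 to 8 of the mature strand.

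All 9 genes carry 1 seed on the 5p arm, and their mature sequences are shown because they differ elsewhere by so little that it decides which reads can be given to a gene. The sequences are those of RefSeq on GRCm38.p6, where 8 genes matched by symbol and Gm24111 was represented by Mirlet7f-1. Capitals mark the seed.
let-7i-5p: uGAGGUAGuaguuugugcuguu
let-7g-5p: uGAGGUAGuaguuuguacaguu
let-7d-5p: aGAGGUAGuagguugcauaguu
miR-98-5p: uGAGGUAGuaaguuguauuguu
let-7b-5p: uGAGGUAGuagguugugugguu
let-7f-5p: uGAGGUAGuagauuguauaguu
let-7a-5p: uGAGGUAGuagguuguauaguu
let-7c-5p: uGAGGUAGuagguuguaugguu

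Against let-7a-5p, counted from 1 at the 5′ end, let-7c-5p differed by A19G and let-7f-5p by G12A, a single base each. Mirlet7g (G12U, U18C), Mirlet7d (U1A, U16C), Mirlet7b (A17G, A19G) and Mir98 (G11A, A19U) differed at 2 bases. The farthest was Mirlet7i, with 4 differences (G12U, A17G, U18C, A19U). Between let-7b-5p and let-7c-5p there was 1 difference, and between let-7g-5p and let-7i-5p there were 2.

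Copies of a mature strand were found at 4 of the 9 genes. The let-7f-5p strand is encoded by both Mirlet7f-1 and Mirlet7f-2. The let-7c-5p strand is encoded by Mirlet7c-2 and by Mirlet7c-1, a gene of the Mir99a cluster. The let-7a-5p strand stands in the hairpins of Mirlet7a-1 and of Mirlet7a-2, a gene of the Mir100 cluster. The 3p strands, usually the minor product of a let-7 hairpin, separate Mirlet7f-1 from Mirlet7f-2 but not Mirlet7a-1 from Mirlet7c-2. They are shown for that reason, again with bases 2 to 8 in capitals.
let-7f-1-3p: cUAUACAAucuauugccuuccc
let-7f-2-3p: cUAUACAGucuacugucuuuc
let-7a-1-3p: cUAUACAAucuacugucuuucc
let-7c-2-3p: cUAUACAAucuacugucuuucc

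Mirlet7a-1 and Mirlet7c-2 thus share each arm with another gene, Mirlet7f-1 and Mirlet7f-2 share the 5p arm, and Mirlet7i, Mirlet7g, Mirlet7d, Mirlet7b and Mir98 share neither. The shared run went little beyond the mature strand. It was 22 bases for the 5p arms of Mirlet7f-1 and Mirlet7f-2, 23 bases for those of Mirlet7a-1 and Mirlet7a-2 and for those of Mirlet7c-1 and Mirlet7c-2, and 26 bases for the 3p arms of Mirlet7a-1 and Mirlet7c-2. The files keep reads with several genomic places apart from the genes, as a single sum of 3179149 reads in replicate 1 and 4058237 in replicate 2. A read that lies wholly within a shared run has more than 1 place, so the counts of these 4 genes lack it. The files give 1 count per gene, so neither the reads lost nor the arm of the reads kept can be read from them.

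The library totals were 4562135 same-strand gene counts in replicate 1 and 5771249 in replicate 2, and all 9 genes had at least 10 counts in both. A count of 0 allows up to 3 counts, or 0.658 and 0.520 CPM. Marker miRNAs fixed for facial tissue were present: 5 of 5 mesenchyme and cartilage genes summed to 47597 and 49893 CPM, and 5 of 5 epithelial genes to 55959 and 54932 CPM. The endothelial gene Mir126a stood at 25809.8 and 23871 CPM. Markers of other tissues were low in comparison, with 324 and 309 CPM summed over 6 neural genes in the files (3 at 0 in both), 622 and 385 over 4 striated muscle genes (1 at 0), 101 and 160.1 over 3 erythroid genes, 486 and 502 over 2 white blood cell genes, and 49.5 and 109 for the liver gene Mir122. Several neural and muscle markers are also encoded at more than 1 gene, and reads with several places are missing from their counts. A 0 or a low sum over such genes is therefore no evidence of absence. Mir137 alone gave 315 and 304 CPM of the neural sums. The sums hide uneven levels within a list. In the mesenchyme and cartilage list Mir214 stood at 26825 and 24589 CPM but Mir199a-1 at 20.8 and 27.7. The latter was below the muscle gene Mir206, at 570 and 314 CPM. In bulk tissue, more cells of a type and more RNA per cell cannot be told apart.

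The 9 genes held 15.0% of same-strand counts in replicate 1 and 13.0% in replicate 2, a mean of 14.0 ± 1.40% (SD, n = 2). Mirlet7i and Mirlet7g alone made up 86.2% of the counts of the 9 in replicate 1 and 86.3% in replicate 2. The 5 genes without a shared arm summed to 147499 and 127715 CPM, and the 4 with one to 2263 and 2275 CPM. The latter were 1.51% and 1.75% of the counts of the 9. Most counts at these genes thus stood at a pair of them.

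**Figure D1:**
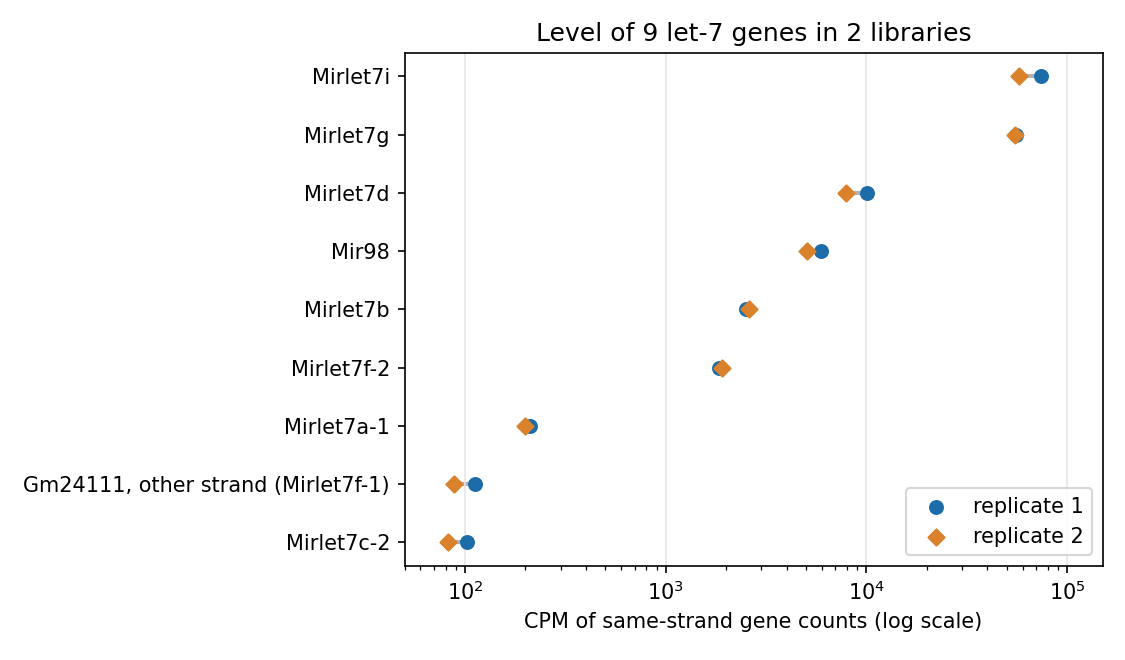
Level of each gene in CPM on a log axis, with a circle for replicate 1 and a diamond for replicate 2, joined by a line. Mirlet7i and Mirlet7g lie far above the others in both libraries, with a lowest value of 54804 CPM, and Mirlet7f-1 and Mirlet7c-2, at the bottom, are the only neighbours in the order whose ranges overlap.

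The level of Mirlet7i was 73749.5 CPM in replicate 1, from 336455 counts, and 57346 in replicate 2, from 330956. It ranked 1 and 2 among all genes of the files. Replicate 1 was the higher library by far more than counting error, since the 95% Wilson intervals ran from 73510.0 to 73989.7 and from 57156 to 57536 CPM. Its hairpin, on the minus strand at chr10:122985640-122985724 (GRCm38), lies within an exon of D630033A02Rik, which GENCODE M21 annotates as a transcribed processed pseudogene. The gene below it in this order, Mirlet7g, stood at 55301 and 54804 CPM, ranks 4 and 3. Its coefficient of variation (CV) over the libraries was 0.639%, the smallest of the 9. Mirlet7g lies in an intron of Wdr82, a gene for a subunit of histone methyltransferase complexes, on the plus strand at chr9:106178840-106178927. Mirlet7i exceeded Mirlet7g by 1.33-fold in replicate 1 and by 1.05-fold in replicate 2, and the ranges of the 2 genes did not overlap.

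Other genes without a shared arm followed at a distance. Mirlet7d, 6.14-fold below Mirlet7g by the means, stood at 10010.4 and 7928 CPM (8969 ± 1473, SD, n = 2). Mir98, a let-7 gene in all but name, stood at 5931 and 5052 CPM (5491 ± 621). Mirlet7b stood at 2507 and 2586 CPM (2547 ± 55.8), with close values in the 2 libraries. Each of these was separated from its neighbours in the order by more than the spread of either.

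Next came the genes with a shared arm. Mirlet7f-2 was at 1839 and 1904 CPM, from 8388 and 10989 counts, and lay below Mirlet7b by 1.36-fold in both libraries. Between it and Mirlet7a-1, at 211 and 199.8 CPM, was the widest step of the order, 8.72-fold in replicate 1 and 9.53-fold in replicate 2. Mirlet7f-1 read through Gm24111 was at 112 and 88.5 CPM, from 511 counts in each library. Mirlet7c-2 was at 102 and 82.5 CPM, from 465 and 476 counts. Replicate 1 was the higher one for both of these, and in each library Mirlet7f-1 lay above Mirlet7c-2, by 1.10-fold and 1.07-fold. Their ranges overlapped, so this order does not exceed the spread between libraries. With 2 values a gene no exact test of the order can reach 0.05.

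All 4 genes with a shared arm lay below all 5 without one, with means from 92.2 to 1871 CPM against 2547 to 65548 CPM. The same split over all genes of the test below is given for comparison, as a description. Of 361 tested genes 328 had a mature sequence in the RefSeq table, and 46 of these (14.0%) had an arm that stands in the hairpin of another gene. Their median was 57.2 CPM, against 137 CPM for the 282 genes with no such arm. Among genes other than the 9, the medians were 47.4 CPM (42 genes) and 129 CPM (277 genes). The medians of the 9 were 153 and 8969 CPM. By this count, which may be too low for the other genes, shared arms were more frequent among the 9, at 44.4%. The step between the classes was wider in the 9, which was not tested. The split holds only genes with at least 10 counts in both libraries, a minimum that all 9 passed. Reads within a shared run are missing from the counts. Other genes with a shared arm may thus have fallen below this minimum, which was not tested. Neither the frequencies nor the step therefore compares the 9 with all genes that share an arm.

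**Figure D2:**
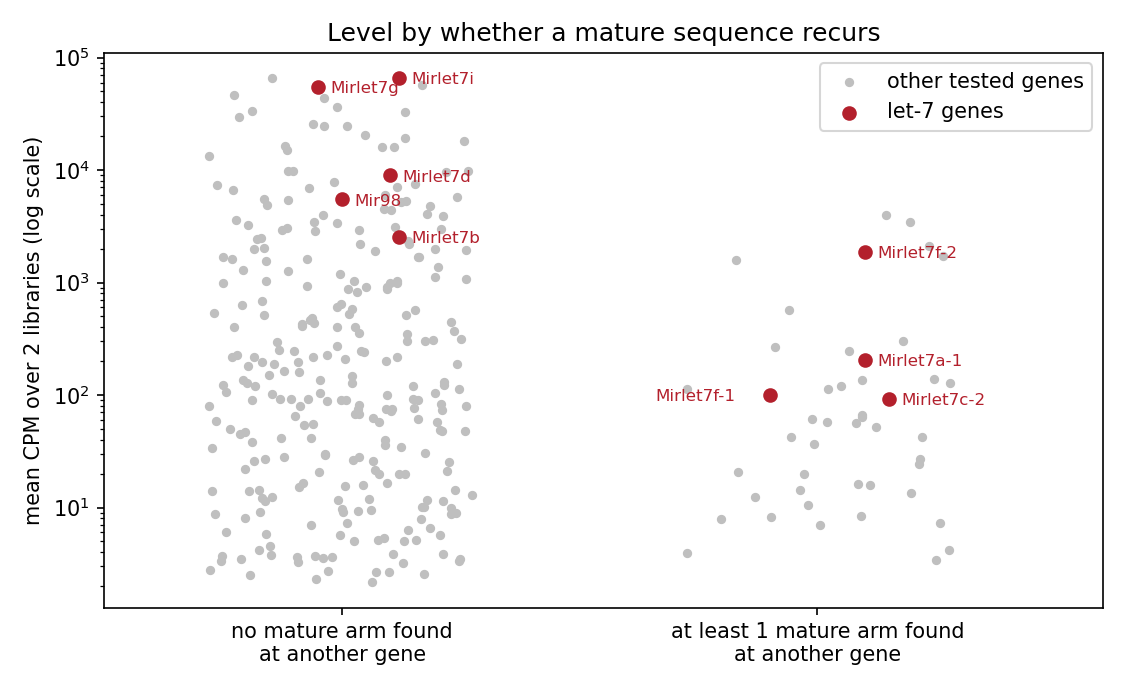
Mean CPM over both libraries on a log axis for 328 tested genes. They are split by whether a mature arm listed under the gene's own name also stands in the hairpin of another gene. Points are spread sideways for sight and the 9 let-7 genes are red. The let-7 genes with a shared arm lie between 92.2 and 1871 CPM and those without between 2547 and 65548 CPM.

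All but Mirlet7i and Mirlet7g lie at 3 loci with another of the 9, which allows genes of 1 strand and 1 host to be set side by side within a library. On chromosome 13 the order along the minus strand is Mirlet7a-1 (chr13:48538179-48538272), Mirlet7f-1 (chr13:48537829-48537917) and Mirlet7d (chr13:48536012-48536114). Each lies in exonic sequence of the long non-coding gene 6720427I07Rik, with 261 bases between the first pair and 1714 between Mirlet7f-1 and Mirlet7d. Mirlet7d had 47.5 times the counts of Mirlet7a-1 in replicate 1 (95% exact counting interval 44.5 to 50.7) and 39.7 times in replicate 2 (37.4 to 42.1). Against Mirlet7f-1 the ratio was 89.4 (81.9 to 97.7) and 89.5 (82.1 to 97.9), equal within counting error. Mirlet7a-1 exceeded Mirlet7f-1 by 1.88-fold and 2.26-fold.

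The chromosome 15 pair lies on the plus strand in an exon of Lncppara, a non-coding transcript. Mirlet7c-2 (chr15:85706603-85706697) stands first and Mirlet7b (chr15:85707319-85707403) 621 bases after it. Mirlet7b had 24.6 times the counts of Mirlet7c-2 in replicate 1 (22.4 to 27.0) and 31.4 times in replicate 2 (28.6 to 34.4), so the libraries differed by more than counting error. The chromosome X pair lies in an intron of Huwe1, which encodes a ubiquitin ligase. Mirlet7f-2 (chrX:151912346-151912428) and Mir98 (chrX:151913214-151913321) lie 785 bases apart. Mir98 had 3.23 times the counts of Mirlet7f-2 in replicate 1 (3.15 to 3.31) and 2.65 times in replicate 2 (2.60 to 2.71).

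At each of the 3 loci the gene without a shared arm was the highest. The mean log2 ratio was 5.44 ± 0.18 for Mirlet7d over Mirlet7a-1 and 6.48 ± 0.0019 for Mirlet7d over Mirlet7f-1 (SD, n = 2). For Mirlet7b over Mirlet7c-2 it was 4.79 ± 0.25, and for Mir98 over Mirlet7f-2 it was 1.55 ± 0.20. The smallest step was at the pair where the lower gene, Mirlet7f-2, keeps a 3p arm of its own. Mirlet7f-1 keeps one as well and had the widest step. Counts opposite to Gm24111 were taken from an annotated span that covers the whole of the Mirlet7f-1 hairpin. How transcription, processing and the loss of multiply placed reads each enter these ratios cannot be told apart here.

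**Figure D3:**
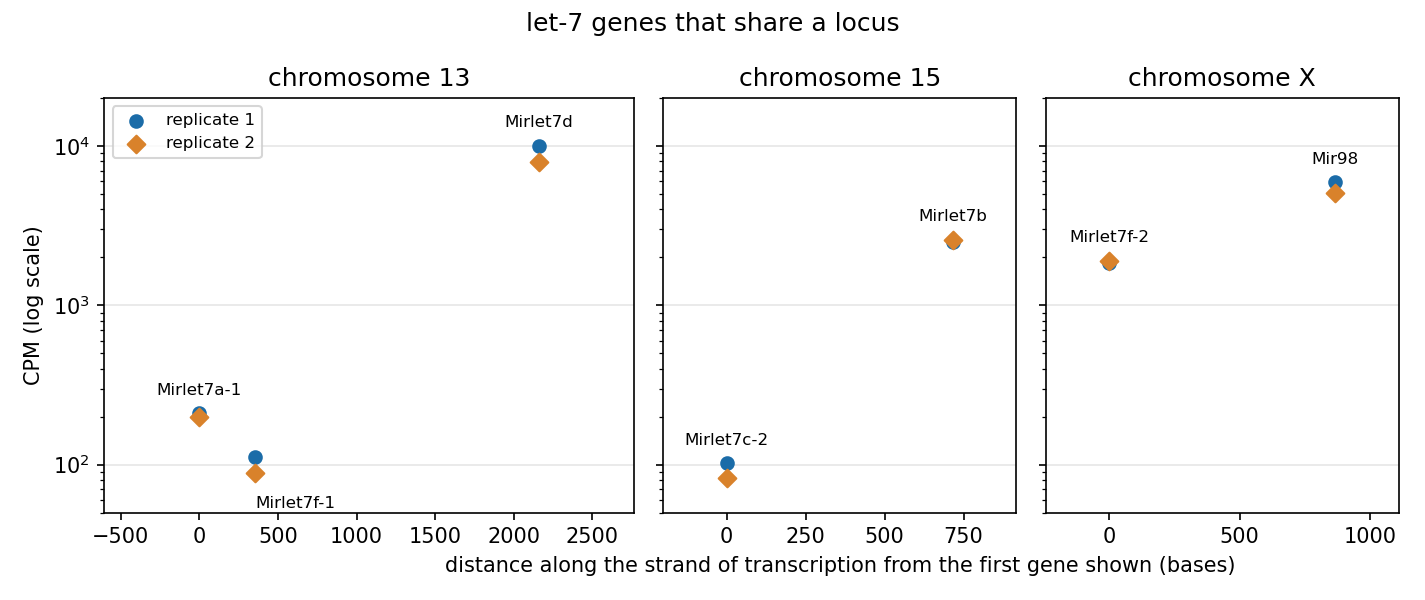
CPM on a log axis against distance in bases along the strand of transcription, for the 3 loci with more than 1 of the genes; circles are replicate 1 and diamonds replicate 2. In each panel the last gene, Mirlet7d, Mirlet7b or Mir98, is the highest in both libraries.

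The difference between the libraries was tested gene by gene by a two-sided exact binomial test of the 2 counts after TMM scaling, with Benjamini-Hochberg adjustment over all 361 genes with at least 10 counts in both. It compares these 2 libraries against counting error, not conditions. Of the 9 genes, 8 passed at 0.05, against 55.1% of all tested genes. The median level of the 9 was 2547 CPM against 113 CPM for all tested genes, and higher counts make smaller ratios pass. Of these, 6 were higher in replicate 1, against 27.4% of all tested genes, and 2 in replicate 2, against 27.7%. The median absolute log2 ratio was 0.23 in the 9 and 0.24 over all tested genes, the 9 included. Since the levels differ, these medians do not compare the 9 with genes of like level.

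Mirlet7i, higher in replicate 1, had a log2 ratio of replicate 2 over replicate 1 of -0.36 (95% exact counting interval -0.37 to -0.36), with an adjusted p of 0 at machine precision. Mirlet7d was at -0.34 (-0.36 to -0.32, adjusted p = 3.42e-271, exact binomial test) and Mir98 at -0.23 (-0.26 to -0.21, adjusted p = 1.76e-79). Mirlet7f-1 was at -0.34 (-0.52 to -0.16, adjusted p = 0.000453) and Mirlet7c-2 at -0.31 (-0.49 to -0.12, adjusted p = 0.00295). These 5 were the larger differences of the 9. Mirlet7g passed with a log2 ratio of only -0.014 (adjusted p = 0.00103). With DESeq2 size factors it did not pass (adjusted p = 0.301), with a range over the alternatives from 0.00175 to 0.301 and a change of sign at a count minimum of 1. Higher in replicate 2 were Mirlet7b, at 0.044 (0.0089 to 0.079, adjusted p = 0.0271), and Mirlet7f-2, at 0.050 (0.0088 to 0.091, adjusted p = 0.0321). Mirlet7a-1 did not pass, at -0.078 (-0.20 to 0.047, adjusted p = 0.303).

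**Figure D4:**
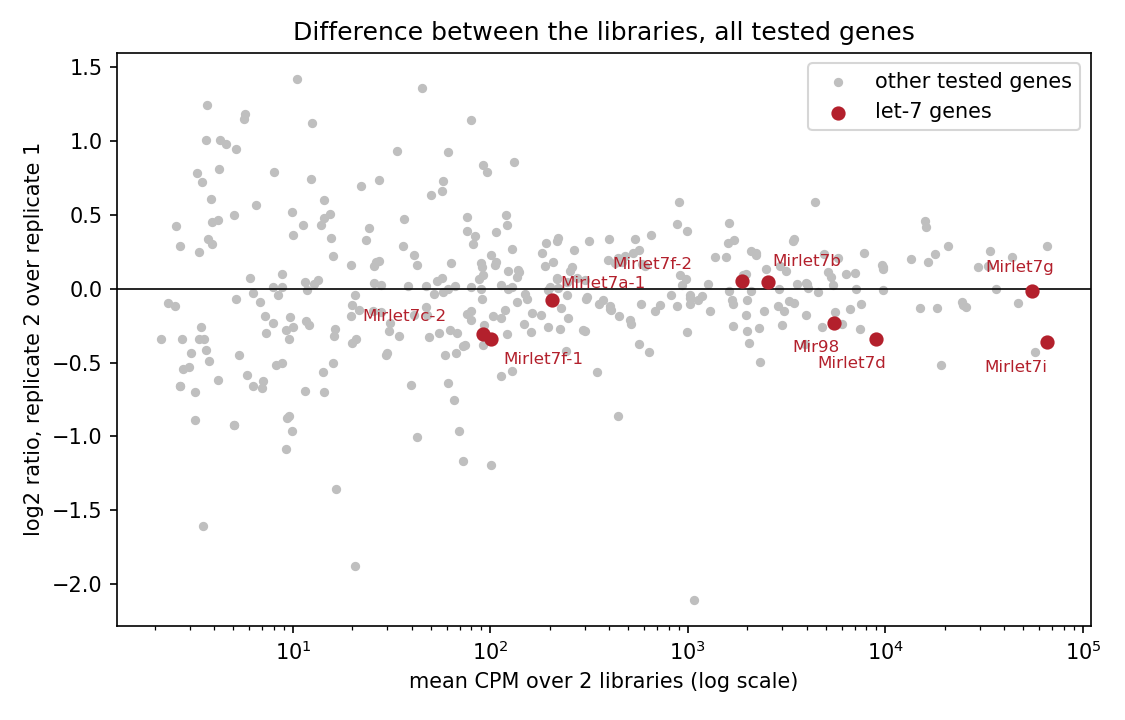
Log2 ratio of replicate 2 over replicate 1 after TMM scaling against mean CPM on a log axis, for all 361 tested genes in grey and the 9 let-7 genes in red. The let-7 genes lie between -0.36 and 0.050, within the band of other genes of like level.

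Genes of a locus did not always move together between the libraries. Mirlet7d and Mirlet7f-1 had equal ratios to 2 decimals, and the counting interval of Mirlet7a-1 at the same locus overlapped that of Mirlet7f-1. The ratio of Mirlet7a-1 over Mirlet7f-1 had overlapping intervals in the libraries, 1.69 to 2.10 in replicate 1 and 2.03 to 2.51 in replicate 2. These overlaps do not show that the values were equal, which was not tested. For Mirlet7d over Mirlet7a-1 the intervals did not overlap, at 44.5 to 50.7 in replicate 1 and 37.4 to 42.1 in replicate 2. On chromosome 15, Mirlet7b was higher in replicate 2 and Mirlet7c-2 in replicate 1. On chromosome X, Mirlet7f-2 was higher in replicate 2 and Mir98 in replicate 1. For these pairs on chromosomes 15 and X the counting intervals of the ratios given above do not overlap between the libraries.

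The precursors were compared for the GGAG motif that LIN28 proteins are known to bind. GGAG was searched on the transcribed strand between the 5p and 3p arms of each RefSeq hairpin. It stood there in 6 of the 9 genes, against 53 of the 645 hairpins with both arms in the table (8.22%). The let-7 genes of the Mir99 and Mir100 clusters, Mirlet7a-2, Mirlet7c-1 and Mirlet7e, each held it there as well, so it is not particular to the 9. The hairpins shown are that of the most abundant gene with the motif in capitals and that of Mirlet7b, which lacks it, since they hold arms of 1 family around different loops.
Mirlet7i hairpin: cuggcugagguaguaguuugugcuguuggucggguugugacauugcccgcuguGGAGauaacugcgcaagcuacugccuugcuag
Mirlet7b hairpin: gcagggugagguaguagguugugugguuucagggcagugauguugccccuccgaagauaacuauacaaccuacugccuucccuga

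The motif lay 4 bases before the 3p arm in Mirlet7i, Mirlet7d, Mirlet7a-1, Mirlet7f-1 and Mirlet7f-2 and 3 bases before it in Mirlet7g. No match was found between the arms of Mirlet7b, Mirlet7c-2 or Mir98. Levels overlapped between the classes, with means of 100.3 to 65548 CPM for the 6 genes with the motif and 92.2 to 5491 CPM for the 3 without. Hairpins of the 9 ran from 83 to 108 bases. Their predicted minimum free energy lay between -48.9 and -39.0 kcal/mol, and the 3 without the motif were among the 4 with the lowest energies. These energies were not divided by length. Of those 4, Mir98, Mirlet7d and Mirlet7c-2 also had the longest hairpins of the 9, at 108, 103 and 95 bases. A match describes letters and is no evidence of binding.

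Other genes with the let-7 seed lie in the Mir99 and Mir100 clusters. Mirlet7e, of the Mir99b cluster and read opposite to Gm25927, was at 5465 and 5834 CPM, near Mir98, and has no shared arm. Mirlet7a-2 was at 248 and 205 CPM and Mirlet7c-1 at 140 and 132 CPM, both near their copies outside the clusters, Mirlet7a-1 and Mirlet7c-2. The range of Mirlet7a-2 overlapped that of Mirlet7a-1, and Mirlet7c-1 lay above Mirlet7c-2 in both libraries. Summed, the 9 genes exceeded these 3 by 25.6-fold in replicate 1 and 21.1-fold in replicate 2. Mirlet7a-2 and Mirlet7c-1 share a 5p run of 23 bases with Mirlet7a-1 and Mirlet7c-2, so reads within it are missing from both sums, and the fold is one of the counts kept. Of the 3, Mirlet7a-2 passed the test between libraries, at -0.27 (adjusted p = 1.81e-05), Mirlet7c-1 did not, at -0.088 (adjusted p = 0.347), and Mirlet7e, read on the other strand, was not among the tested genes.

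Of 4 further genes with a let-7 or let-7-like seed, only Mirlet7j had counts on its strand, at 121 and 106 CPM. Over the 22 bases of let-7i-5p its mature strand differs by G8U alone, which lies in the seed. Its 553 and 610 counts stand beside 336455 and 330956 of Mirlet7i. Whether reads of these genes were kept apart was not tested. Mirlet7k, Mir1961 and Mir202 had 0 same-strand counts in both libraries, against the 3 counts that a 0 allows.

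By level over the 2 libraries, the nearest genes to Mirlet7i outside the 9 were Mir99a, 0.0039 above it in mean log2 CPM, and Mir23b, 0.21 below. Likeness of level did not mean likeness between libraries, since Mir99a was higher in replicate 2 (log2 ratio 0.29) and Mir23b, like Mirlet7i, in replicate 1 (-0.43). Mir23b (0.034 above) and Mir335 (0.23 below) bracketed Mirlet7g. Mirlet7d lay between Mir182 and Mir181c, Mir98 between Mir127 and Mir18, and Mirlet7b between Mir15a and Mir484. Mir107 and Mir181b-2 bracketed Mirlet7f-2, Mir185 and Mir450b bracketed Mirlet7a-1, Mir496a and Mir30b bracketed Mirlet7f-1, and Mir615 and Mir331 bracketed Mirlet7c-2. With 1 group of 2 libraries, likeness rests on level alone.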

How the data were processed

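Whole-number read counts per miRNA gene were deposited by the authors in 3 columns, on mm10 with GENCODE M4, per the deposited description files; the files have no header. Which column holds the gene's strand was inferred from the layout: the last pair of columns sums to the first, and one of the pair holds 4562135 and 5771249 counts against 126885 and 158904 in the other. Values of Mirlet7f-1 and Mirlet7e rest on the latter, read as the opposite strand. For the aligner and trimming, the settings were not given in the sources used here. The same-strand column was used, and the opposite-strand column for Gm24111. Names, hosts and positions came from GENCODE M21 on the same build, which held 1894 of 1973 identifiers. Same-strand gene counts were 44.1% of the reads of each library, and reads placed at several loci 30.7% and 31.0%; read classes stayed out of totals. Wilson and exact intervals are at 95% and cover counting error only, since PCR copies are not independent molecules. Genes with 10 counts or more in both libraries were tested by a two-sided exact binomial test (scipy 1.17.1), with library sizes scaled by TMM (edgeR 4.0.16, R 4.3.3) and Benjamini-Hochberg adjustment at 0.05; log2 ratios between neighbours used a pseudocount of 0.5. The test was checked on simulated data. Hairpin energies came from RNAfold 2.7.2. Mature copies were sought among the RefSeq mature entries and, chosen after seeing the data, within the hairpins; no genome sequence was used. Named genes were the 9 members, the other let-7 seed genes, the nearest gene above and below each member by level, hosts, and the tissue markers. Mir142, Mir9-1 and Mir1a-2 of the markers were not found by name among the counted genes, so they have no values here. Members and lists were chosen with earlier results of these data known. Alternatives were other scalings (DESeq2 1.42.0, total counts), count minimums of 1 and 100, other denominators, the column that ignores strand, other pseudocounts, looser sequence matches and leaving out each library.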

Additional observations from a re-analysis of the deposited data

Results flagged for a closer look

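Outside the counts used above, Mirlet7b had 18 opposite-strand counts in replicate 1 and 15 in replicate 2, above the 3 counts that a 0 allows. On the strand of Gm24111 itself there were 4 counts in replicate 1 and 5 in replicate 2, beside the 511 on the other strand in each. Reads placed at several loci came to 3179149 in replicate 1 and 4058237 in replicate 2, which is 0.697 and 0.703 per same-strand gene count, and were assigned to no gene.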

How the results depend on the processing

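No reading here separates conditions, and a group of 2 libraries gives no test of a level. The share of counts held by the 9 genes was 6.17% when all reads of a library, multiply placed and unmapped ones included, formed the denominator; the cause is the larger denominator. With either library left out it ran from 13.0 to 15.0%, a move that with 2 libraries cannot exceed their spread. The log2 ratio of Mirlet7d over Mirlet7f-1 moved from 6.48 to 6.47 in the column that ignores strand and to 6.47 with a pseudocount of 5, past a spread of 0.0019. In the 25 other alternatives run for the shares, ratios and counts that kept both libraries, none changed a count by over 1.5 times or a value by its spread. Single levels moved by more than their spread for 3 of 9 genes when opposite-strand counts joined the total (lower) and for 4 of 8 when the most abundant gene left it (higher). Mirlet7g turned to a log2 ratio of 0.011 with a count minimum of 1 (adjusted p = 0.0178, exact binomial test) and did not pass with a minimum of 100 (adjusted p = 0.221) or with DESeq2 size factors (adjusted p = 0.301), so 7 or 8 genes passed over the settings. With at most 1 mismatch Mirlet7b, close to let-7c-5p, joined the genes with a shared arm, making 5. Leaving out a library gives no test between libraries.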
